A study of Mus musculus with 40 samples.

Results

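The genes described here are 38 genes of glycolysis and of the response to low oxygen, taken by symbol from 55260 symbols in 4 expression tables and 55286 in the fifth, which holds the libraries named LO. All 38 symbols were found in all 5 tables. They comprise 2 glucose transporters, 9 enzymes of upper glycolysis, 2 enzymes that set the level of fructose 2,6-bisphosphate, 6 enzymes of lower glycolysis, 3 genes of lactate metabolism, 1 pyruvate dehydrogenase kinase, 3 mitochondrial proteins, 2 oxygen-sensing hydroxylases, 3 other dioxygenases, 2 secreted peptides and 5 further genes known for induction by low oxygen. The study measured poly(A) RNA of mouse embryonic lung epithelium and of organoids grown from it, in 40 libraries.

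Tip epithelium, the ends of the branching lung buds, was collected on 4 embryonic days (E), with 1 library each: E10.5, E11.5, E12.5, E13.5. The organoid time series held 10 libraries, named by the embryonic day of the starting tissue and the days in culture: E9.5 for 13 days, E10.5 for 11, 18 and 32 days, E11.5 for 11 days, E13.5 for 11, 19 and 30 days, and E14 for 11 and 24 days. The culture named ALL had 2 numbered libraries, as had ALL-FGF10, ALL-MTG, and ALL-VC, and 2C, 2C+F10, 2C+MTG, 2C+VC and a further ALL without a number had 1 each. Another 9 libraries came from an intact organoid and from 8 pieces of organoids named by position, and 4 from cultures named LO on days 8, 11 and 18 and on day 11 with DCI. The labels do not spell out MTG, VC, F10, 2C, LO or DCI, so these are used as names, and it is assumed that minus means left out and plus means added. They give no mouse strain or genotype, and do not say whether numbered libraries came from separate animals or cultures. For those cultures, p-values measure the spread between numbered libraries, which may be technical. Tips, time-series organoids and pieces had 1 library per stage, culture or position. For them, the spread left by the fit stands in for replicate error.

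Glycolysis splits glucose into pyruvate. Glucose enters through transporters such as Slc2a1 and Slc2a3, is phosphorylated by hexokinase, committed by phosphofructokinase, split by aldolase, and oxidised by Gapdh, after which Pgk1 and Pkm yield ATP. Lactate dehydrogenase interconverts pyruvate and lactate, and Slc16a3 carries lactate out of the cell. When oxygen is low, prolyl hydroxylases such as Egln1 and Egln3 no longer mark the alpha subunits of hypoxia-inducible factor (HIF) for destruction, and HIF, bound to DNA at the core letters ACGTG or GCGTG, raises transcription of many of these genes, among them the angiogenic growth factor Vegfa. The embryonic lung is known to develop at low oxygen tension.

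The letters ACGTG and GCGTG were counted on both strands in the 250 bases before each gene's start, taken from RefSeq with the GRCm38.p6 assembly (for genes with several starts, the RefSeq start nearest the start of the GENCODE M21 gene). A window was found for 35 of the 38 genes, and none for Slc2a3, Bnip3l or Ndrg1. Of the 35 windows, 27 (77.1%) held at least 1 match, against 38.6% of 32851 windows of the same length over all genes. The 2 shares are not fully alike. The 38.6% counts every window of genes with several starts, and windows were not matched for base composition or expression. Ldha and Bnip3 had 5 matches each and Ankrd37 had 4, a number reached in 2.58% of all windows. Genes with and without a match stood both among those that rose with days in culture, described below, and among those that did not pass: 17 of the 21 genes with a window that rose had one (median 2 per window, 0 to 5), as had 10 of the 14 that did not pass (median 1, 0 to 3), with no test made. Hk1, Aldoa, Tpi1 and Pkm rose and had none, and P4ha2 had 3 and did not pass. The windows of 8 genes, picked after their values were seen, are printed to show both cases: Slc16a3, Pgk1, Ldha, Bnip3 and Tpi1 rose with days in culture, and Ldhb, Vegfa and P4ha2 did not pass that test. Capitals mark the matches, and CACGTG counts as 2 because it reads ACGTG on each strand.
Slc16a3, a lactate exporter, chr11:120948817-120949066, plus strand: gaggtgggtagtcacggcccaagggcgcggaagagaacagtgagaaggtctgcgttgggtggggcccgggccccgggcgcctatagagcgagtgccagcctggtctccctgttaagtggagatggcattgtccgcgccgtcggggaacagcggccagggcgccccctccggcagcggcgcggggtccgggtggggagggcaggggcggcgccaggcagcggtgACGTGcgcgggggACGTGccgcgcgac
Pgk1, phosphoglycerate kinase, chrX:106186850-106187099, plus strand: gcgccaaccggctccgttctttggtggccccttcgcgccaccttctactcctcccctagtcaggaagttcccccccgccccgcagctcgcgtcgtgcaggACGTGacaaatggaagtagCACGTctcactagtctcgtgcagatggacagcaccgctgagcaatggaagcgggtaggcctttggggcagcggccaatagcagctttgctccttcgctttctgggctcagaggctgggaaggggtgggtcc
Ldha, the muscle-type lactate dehydrogenase subunit, chr7:46845554-46845803, plus strand: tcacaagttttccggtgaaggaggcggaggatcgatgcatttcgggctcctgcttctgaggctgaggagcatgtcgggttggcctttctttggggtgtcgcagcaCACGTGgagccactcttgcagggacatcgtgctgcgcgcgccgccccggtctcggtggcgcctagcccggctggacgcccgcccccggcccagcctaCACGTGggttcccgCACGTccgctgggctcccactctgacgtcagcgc
Bnip3, a mitophagy receptor, chr7:138909507-138909756, minus strand: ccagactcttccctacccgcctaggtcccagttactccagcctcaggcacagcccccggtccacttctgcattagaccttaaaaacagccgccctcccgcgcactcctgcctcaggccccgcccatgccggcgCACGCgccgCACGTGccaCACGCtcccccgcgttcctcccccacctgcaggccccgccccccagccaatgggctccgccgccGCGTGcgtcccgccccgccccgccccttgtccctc
Ldhb, the heart-type lactate dehydrogenase subunit, chr6:142507958-142508207, minus strand: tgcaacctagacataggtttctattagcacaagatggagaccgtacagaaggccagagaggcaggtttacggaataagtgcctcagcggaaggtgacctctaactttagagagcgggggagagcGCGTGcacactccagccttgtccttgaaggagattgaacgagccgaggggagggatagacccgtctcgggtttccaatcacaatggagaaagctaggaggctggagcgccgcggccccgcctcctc
Vegfa, chr17:46032378-46032627, minus strand: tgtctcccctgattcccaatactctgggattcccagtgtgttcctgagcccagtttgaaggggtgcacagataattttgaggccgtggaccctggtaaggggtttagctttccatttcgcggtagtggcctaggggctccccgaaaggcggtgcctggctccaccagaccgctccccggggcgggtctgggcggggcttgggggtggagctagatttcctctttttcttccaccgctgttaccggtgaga
Tpi1, triose phosphate isomerase, chr6:124814159-124814408, minus strand: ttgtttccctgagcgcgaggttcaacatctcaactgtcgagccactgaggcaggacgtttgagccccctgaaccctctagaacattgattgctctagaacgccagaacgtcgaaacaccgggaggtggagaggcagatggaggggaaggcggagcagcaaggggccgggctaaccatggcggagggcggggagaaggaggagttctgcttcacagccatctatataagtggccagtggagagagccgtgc
P4ha2, a collagen prolyl hydroxylase, chr11:54100674-54100923, plus strand: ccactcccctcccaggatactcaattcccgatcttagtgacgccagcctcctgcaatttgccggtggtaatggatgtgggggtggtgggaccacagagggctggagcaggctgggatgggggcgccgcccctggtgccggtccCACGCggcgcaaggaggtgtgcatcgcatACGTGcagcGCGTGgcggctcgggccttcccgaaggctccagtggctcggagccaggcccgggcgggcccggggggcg
Slc16a3 and Pgk1 carried 2 matches each, and Ldhb had 1. The Vegfa and Tpi1 windows had none, which says only that these letters are not in those windows. A match is a description of the sequence, and binding was not measured.

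Expression was given as TPM, a gene's share of all transcripts in a library, corrected for transcript length, so levels of different genes can be set side by side. TPM keeps no sequencing depth, and the number of libraries limits the precision. Each library listed between 13040 and 14420 genes at 1 TPM or more. The epithelial markers Epcam, Cdh1, Krt8, Krt18, Nkx2-1 and Sox9 summed to 1165 to 2361 TPM over the 40 libraries and none was at 0 in any. Embryonic globins summed to 1050 to 7685 TPM in the 4 tips and to at most 0.29 TPM in the 36 other libraries, and of 3527 genes of 100 to 150 nucleotides none was above 0 TPM in any tip, while 31 to 75 were in each time-series organoid. Culture, tissue makeup and library preparation therefore cannot be told apart between tips and organoids. The 5 tables were deposited separately, and tests were run within a table only, so a level set beside one from another table carries no test. In bulk RNA of this kind, fewer cells of a type and less RNA per cell cannot be told apart.

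The first comparison asked how these genes differ between the tissue of origin and the organoids. The glycolytic enzymes were most abundant in the tips. Summed over 17 enzymes of the pathway, from hexokinase to lactate dehydrogenase, the share of all TPM was 1.17%, 1.185%, 0.902% and 0.781% in the tips, from the youngest to the oldest. In the organoids it lay between 0.256% and 0.702% with a median of 0.273%, and did not overlap the tips. The 3 highest organoids were those kept for 30, 32 and 24 days, at 0.702%, 0.577% and 0.460%, and the other 7 lay between 0.256% and 0.313%. Every other culture of the study lay between 0.225% and 0.572%.

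**Figure D1:**
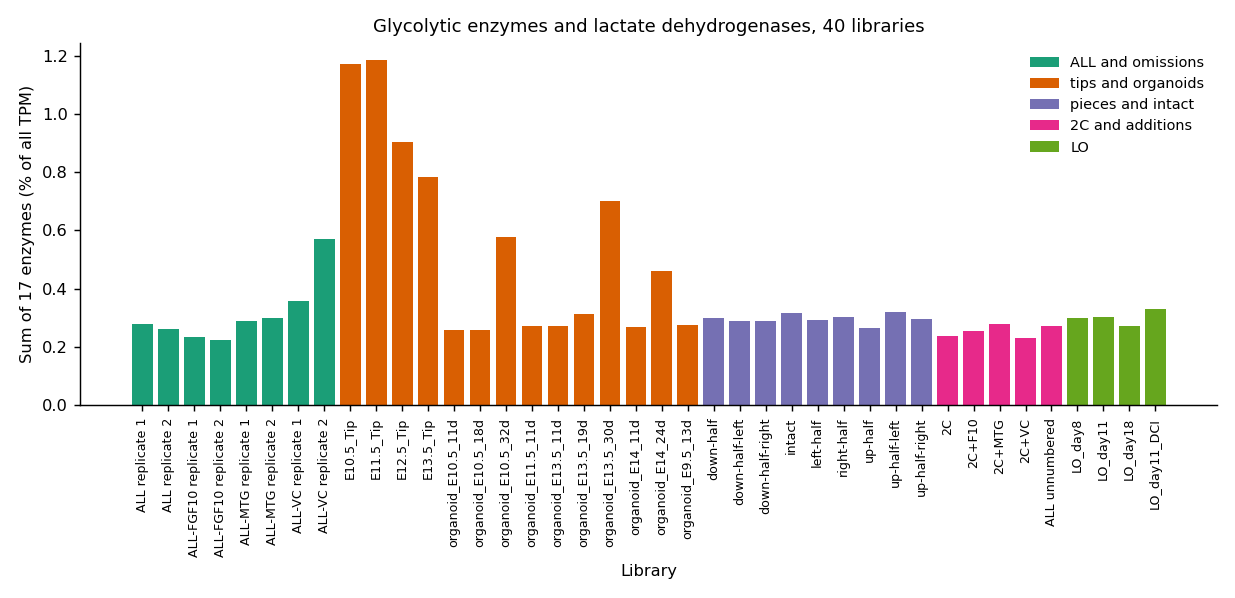
Summed TPM of 17 glycolytic enzymes as a percentage of all TPM (vertical axis) in each of the 40 libraries (bars, coloured by set). The 4 tips reach 0.781% to 1.185%; among cultures, the organoids of 24, 30 and 32 days and ALL-VC replicate 2 (0.572%) stand highest.

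In a limma fit on log2(TPM + 1), 17 of the 38 genes were lower in organoids than in tips and 6 were higher at an adjusted p under 0.05. The fit had no terms for stage or culture day. No stage or culture was repeated, so the spread across them stood in for replicate error. The SDs given below hold that spread too. Of all 16779 genes tested, 40.2% were called lower and 21.7% higher, 61.9% in all, so the number called among the 38 is close to that of any genes and is not a result about them. Their median log2 difference was -0.36, against -0.20 over all genes. When TPM was rescaled by median ratios, which raised the organoids against the tips, the calls over all genes moved from 3640 higher and 6752 lower to 5070 and 5248, while those of the 38 genes were 7 higher and 14 lower.

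Both glucose transporters were called lower. Slc2a1, the transporter of basal glucose uptake (chromosome 4, 119108711 to 119137983, GRCm38), stood at 101, 107, 57.2 and 47.5 TPM in the tips and at 8.60 to 27.5 TPM in the organoids, with no overlap. The means were 78.3 ± 30.3 (SD, n = 4) and 14.3 ± 5.59 TPM (SD, n = 10), a log2 difference of -2.36 ± 0.26 (SE; limma, adjusted p = 1.47e-06). Slc2a3, a high-affinity transporter (chromosome 6, 122727809 to 122801640), reached 696 and 719 TPM at E10.5 and E11.5 but 109 and 18.2 TPM at E12.5 and E13.5, and the organoids, at 9.12 to 104 TPM, overlapped the later tips. Its difference of -2.22 ± 0.83 (adjusted p = 0.0292) did not pass with median-ratio or quantile scaling, without the filter, or without the E10.5 or the E11.5 tip.

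In upper glycolysis the isoforms went different ways. Hexokinase 2, the inducible form, stood at 91.4, 98.3, 74.7 and 75.8 TPM in tips and 8.88 to 40.4 TPM in organoids, a log2 difference of -1.97 ± 0.35 (adjusted p = 1.43e-04), while Hk1 stood at 11.2 to 16.8 and 10.7 to 23.3 TPM and was not called. The Hk2 part of summed hexokinase was 84.1% to 87.1% in tips and 40.7% to 65.5% in organoids. Of the phosphofructokinases, the liver form Pfkl was lower in organoids (145 ± 66.2 against 34.8 ± 21.8 TPM, log2 difference -2.09 ± 0.37, adjusted p = 1.51e-04) and the platelet form Pfkp was higher (3.26 ± 2.25 against 20.2 ± 18.9 TPM, log2 difference 2.10 ± 0.53, adjusted p = 0.00269). Pfkp therefore made up 0.956% to 2.25% of summed phosphofructokinase in tips and 10.7% to 41.4% in organoids. Aldoc, the brain-type aldolase, was higher in every organoid (8.89 to 55.9 TPM) than in every tip (3.02 to 6.10 TPM; log2 difference 1.57 ± 0.43, adjusted p = 0.00453), whereas the far more abundant Aldoa was not called. Tpi1, triose phosphate isomerase, was lower (-1.62 ± 0.29, adjusted p = 1.43e-04), Pfkm lower by a small amount (-0.40 ± 0.13, adjusted p = 0.0132; not called with either rescaling), and Gpi1 was not called.

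Pfkfb3 and Pfkfb4 make fructose 2,6-bisphosphate, the strongest activator of phosphofructokinase, and also moved apart. Pfkfb3 was lower in organoids (25.7 ± 7.23 against 11.3 ± 7.23 TPM; -1.25 ± 0.34, adjusted p = 0.00466) and Pfkfb4 was higher in all 10 (6.96 to 27.2 TPM) than in all 4 tips (4.04 to 6.74 TPM; 1.33 ± 0.29, adjusted p = 9.43e-04).

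Lower glycolysis was lower almost throughout, with 5 of 6 enzymes called. Gapdh was the most abundant gene of the 38 in the tips, at 3667, 3197, 3355 and 3258 TPM, and lay between 656 and 1929 TPM in organoids, a log2 difference of -1.84 ± 0.27 (adjusted p = 2.60e-05). Pkm stood at 1314 to 2044 TPM in tips and 274 to 759.7 TPM in organoids (-2.12 ± 0.25, adjusted p = 2.13e-06), and Pgam1 at 491 to 849.6 and 112 to 270 TPM (-2.03 ± 0.21, adjusted p = 7.87e-07). Eno1 gave the largest enzyme difference (-2.97 ± 0.34, adjusted p = 1.76e-06), but its near copy Eno1b held 44.1% to 59.2% of the summed TPM of both in these 14 libraries, so the Eno1 level is uncertain. Pgk1 was called lower as well (443.7 ± 141.8 against 209.9 ± 186.9 TPM; -1.41 ± 0.49, adjusted p = 0.0204), with an overlap made by the organoids of 30 and 32 days at 610.0 and 480.3 TPM. That call was lost with either rescaling and without the E10.5 or the E11.5 tip. Eno2, the neuronal enolase, was below 13 TPM everywhere and was not called.

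Of the lactate genes, Slc16a3 had the largest difference of all 38. It stood at 145, 163, 52.8 and 24.7 TPM in tips, at 54.0, 27.3 and 16.0 TPM in the organoids of 30, 32 and 24 days, and at 0.39 to 1.77 TPM in the other 7 organoids (log2 difference -4.13 ± 0.96, adjusted p = 0.00152). Ldha was lower in organoids (1178 ± 479 against 424 ± 206 TPM; -1.504 ± 0.33, adjusted p = 9.17e-04) and Ldhb was not called (189 ± 16.1 against 181 ± 30.9 TPM; -0.08, with a 95% confidence interval from -0.38 to 0.22). Ldhb made up 9.30% to 23.6% of summed lactate dehydrogenase in tips and 18.4% to 43.8% in organoids. Pdk1, a kinase that switches off pyruvate dehydrogenase, was not called, at 14.5 to 56.2 TPM in tips and 14.0 to 38.5 TPM in organoids. Its relatives outside the 38 genes were called and are given below.

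The hypoxia genes outside glycolysis did not share a direction. Vegfa (chromosome 17, 46016993 to 46032369) had the largest difference on the higher side: the tips stood at 34.4, 34.5, 32.9 and 42.5 TPM and the organoids at 133 to 382 TPM with a median of 206 TPM, so every organoid lay above every tip. The log2 difference was 2.54 ± 0.22 (adjusted p = 1.14e-07), from 36.1 ± 4.33 to 225 ± 76.4 TPM. P4ha2, a collagen prolyl hydroxylase, was also higher without overlap (1.20 ± 0.24, adjusted p = 3.52e-04), and Ddit4, an inhibitor of mTORC1 signalling, was called higher by 0.38 ± 0.16 (adjusted p = 0.0463), a call lost in 12 of 19 alternative settings. Egln1, the main oxygen-sensing hydroxylase, was lower (45.5 ± 9.21 against 21.3 ± 5.51 TPM; -1.07 ± 0.17, adjusted p = 4.35e-05), as were Ankrd37 (10.1 ± 2.66 against 3.18 ± 3.39 TPM; -1.67 ± 0.45, adjusted p = 0.00395) and Higd1a, a mitochondrial protein (52.4 ± 8.60 against 29.8 ± 7.06 TPM; -0.82 ± 0.18, adjusted p = 8.33e-04). Bnip3, Bnip3l, Egln3, P4ha1, Kdm3a, Adm, Ndrg1, Car9 and Mxi1 were not called. Bnip3 stood at 44.1 to 122 TPM in tips and 45.6 to 188 TPM in organoids, and Egln3 at 3.43 to 8.24 and 0.07 to 31.6 TPM.

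Related genes outside the 38 are given by the same fit. Of 15 further glycolysis genes tested, 11 were lower and 2 higher, the latter being Pfkfb2 (2.496) and Galm (1.32). Of 23 further hypoxia genes, 11 were lower and 5 higher, among them Bhlhe40 (3.501) and Selenbp1 (3.47) on the higher side and Ak4 (-3.53) and Mif (-2.42) on the lower. Among 9 HIF subunits and regulators, Epas1 (1.12), Cited2 (0.87), Arnt (0.38) and Hif1a (0.27) were higher, and Arnt2 (-2.45), Hif3a (-2.02), Hif1an (-0.42) and Vhl (-0.34) were lower. Of 16 genes of the citric acid cycle, 10 were lower and 1 higher. Among genes of pyruvate dehydrogenase and its regulation, Pdk2 (1.79), Mpc1 (1.70), Pdk4 (1.36), Mpc2 (1.06) and Pdha1 (0.25) were higher. Pdp1 (-0.98), Pdk3 (-0.72), Pdhx (-0.65) and Dld (-0.53) were lower. All 12 proliferation genes were lower in organoids (summed level 2149 to 2461 TPM in tips, 318 to 761 TPM in organoids), and 8 mesenchymal markers summed to 94.8 to 191 TPM in tips and 2.95 to 343 TPM in organoids with 5 called lower. The part of cell division, blood or mesenchyme in the differences above was not tested.

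The second comparison followed days in culture within the organoids. With the day of culture and the starting stage as terms in a single limma fit over the 14 libraries, 22 of the 38 genes rose with culture day and none fell. Over all 16779 genes tested, 2.97% rose and 6.67% fell, 9.64% in all. The median change of the 38 over the 21 days between the shortest and the longest culture was 1.24 on the log2(TPM + 1) scale, against -0.17 for all genes, and 36 of 38 estimates were positive. Rescaling by median ratios moved the calls over all genes from 498 higher and 1119 lower to 705 and 474, and those of the 38 to 26 higher and 0 lower.

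**Figure D2:**
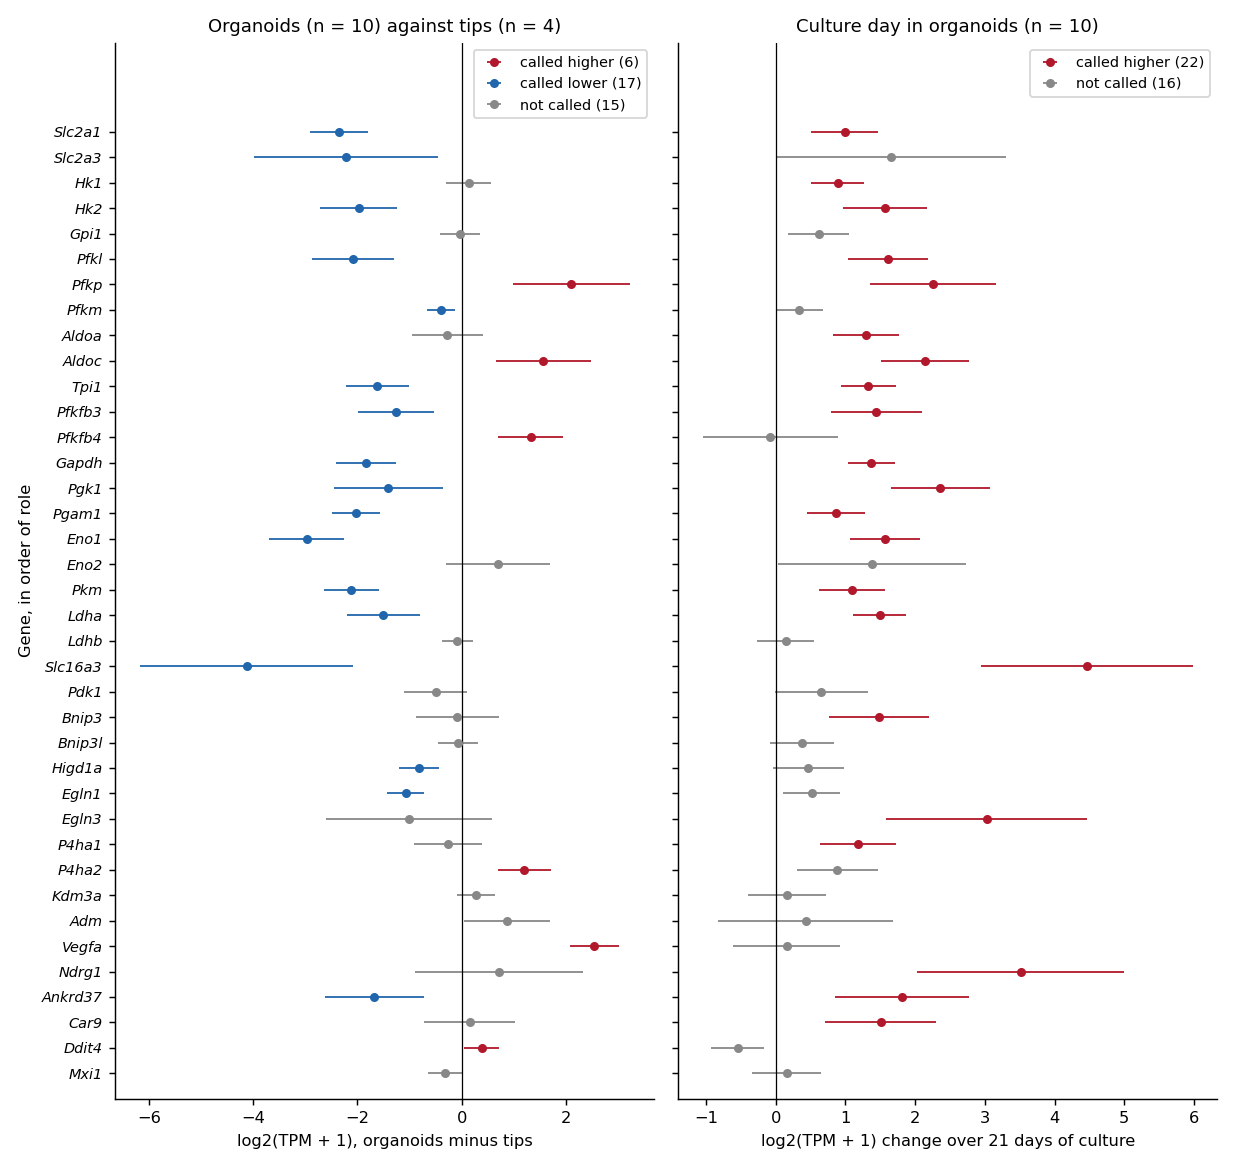
Log2(TPM + 1) difference of each of the 38 genes with its 95% confidence interval, organoids minus tips on the left and the change over 21 days of culture on the right; colour marks genes called higher, lower or not called. The left panel has 6 genes higher and 17 lower, the right panel 22 higher and 0 lower.

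The count rests on the long cultures. Only 3 organoids had been kept for more than 19 days. Without those of 30 and 32 days, an alternative chosen after the data were seen, 2 of the 38 genes passed (Hk2 at 2.63 and Ldha at 1.70 over 21 days), as 353 of all genes did against 1617. Without the 32-day organoid alone 14 passed, 12 of them among the 22. Hk2 and Ldha were the only 2 of the 22 that passed in all 20 alternative settings. These 3 organoids came from 3 starting stages, E13.5, E10.5 and E14.

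The largest change was that of the lactate exporter Slc16a3 (chromosome 11, 120948480 to 120960868). Organoids from E13.5 stood at 0.59, 0.78 and 54.0 TPM after 11, 19 and 30 days, those from E10.5 at 1.77, 0.67 and 27.3 TPM after 11, 18 and 32 days, and those from E14 at 0.87 and 16.0 TPM after 11 and 24 days. The level was thus low up to day 19 in each starting stage and higher in each of the 3 longer cultures; at 30 and 32 days it lay above the E13.5 tip (24.7 TPM), and at 24 days below every tip. The change over 21 days was 4.46 ± 0.70 (SE; adjusted p = 0.00342). Ldha, whose product makes lactate, rose by steps in the same order: 265, 374 and 856 TPM from E13.5, 245, 364 and 613 TPM from E10.5, and 279 and 634 TPM from E14. Its change was 1.49 ± 0.18 (adjusted p = 9.10e-04). Ldhb stayed between 107 and 216 TPM and did not pass (0.14, interval from -0.26 to 0.55).

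Among the transporters, Slc2a1 rose by 0.99 ± 0.22 (adjusted p = 0.0165), from 10.7 and 11.8 TPM at 11 and 19 days to 27.5 TPM at 30 days in organoids from E13.5 and reaching 20.5 TPM at 32 days in those from E10.5. Slc2a3 did not pass (1.65 ± 0.76, adjusted p = 0.195): its highest organoid level, 104 TPM, was that of E10.5 after 18 days.

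Of 9 upper glycolysis enzymes 7 rose. Hk2 stood at 8.88, 32.4 and 31.9 TPM in organoids from E10.5, at 14.7, 26.0 and 38.0 TPM in those from E13.5 and at 17.4 and 40.4 TPM in those from E14, a change of 1.57 ± 0.28 (adjusted p = 0.00577). Unlike Slc16a3, it was already higher on days 18 and 19 than on day 11 in both series that had such a day. Pfkp reached 53.9 and 56.9 TPM at 30 and 32 days against 4.88 to 18.6 TPM in the other 8 organoids (2.26 ± 0.41, adjusted p = 0.00724), and Aldoc 55.9 and 43.8 TPM against 8.89 to 18.3 TPM (2.15 ± 0.29, adjusted p = 0.00171). Pfkl (1.61), Tpi1 (1.33), Aldoa (1.30) and Hk1 (0.89) rose too, while Gpi1 (0.61, adjusted p = 0.0788) and Pfkm (0.34, adjusted p = 0.199) did not pass. Pfkfb3 rose (1.44 ± 0.30, adjusted p = 0.0124) and Pfkfb4 did not pass (-0.08, interval from -1.05 to 0.89).

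Of 6 lower glycolysis enzymes 5 rose. Pgk1 (chromosome X, 106187100 to 106203699), which makes the first ATP of the pathway, was at 122, 126 and 610.0 TPM in organoids from E13.5, at 98.8, 80.0 and 480.3 TPM in those from E10.5, and at 104 and 269.5 TPM in those from E14. Its change of 2.36 ± 0.33 (adjusted p = 0.00181) was the largest of the lower enzymes, and as for Slc16a3 only the 3 longest cultures stood above the others, which lay between 80.0 and 126 TPM. Gapdh followed with 766, 925 and 1929 TPM, 726, 656 and 1690.1 TPM, and 719 and 1394 TPM in the same order (1.37 ± 0.15, adjusted p = 7.58e-04). Eno1 (1.56), Pkm (1.09) and Pgam1 (0.86) rose and Eno2 did not pass (1.38, adjusted p = 0.187).

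The hypoxia genes outside glycolysis split into those that rose and those that did not pass. Egln3, which HIF itself is known to induce, was at 2.05, 0.65 and 31.6 TPM in organoids from E13.5, at 0.25, 0.07 and 7.52 TPM in those from E10.5 and at 0.91 and 6.78 TPM in those from E14 (3.03 ± 0.66, adjusted p = 0.0156). Ndrg1, a stress-response gene, was at 32.3, 13.8 and 8.58 TPM in the 3 longest cultures and at 0.14 to 1.79 TPM in the other 7 (3.51 ± 0.68, adjusted p = 0.00923). Bnip3 stood at 188, 132 and 76.8 TPM in the same 3 and at 45.6 to 65.7 TPM in the other 7 (1.48 ± 0.33, adjusted p = 0.0166). Ankrd37 (1.81), P4ha1 (1.18) and Car9 (1.50, at most 4.95 TPM) also rose. Vegfa did not pass: the organoids of 30, 32 and 24 days stood at 382, 153 and 209.8 TPM, and the change was 0.16 with an interval from -0.61 to 0.93. Pdk1 (0.65, adjusted p = 0.203), Egln1 (0.51, adjusted p = 0.110), P4ha2 (0.88, adjusted p = 0.0587), Higd1a, Bnip3l, Kdm3a, Adm, Mxi1 and Ddit4 (-0.54, adjusted p = 0.0719) did not pass either.

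**Figure D3:**
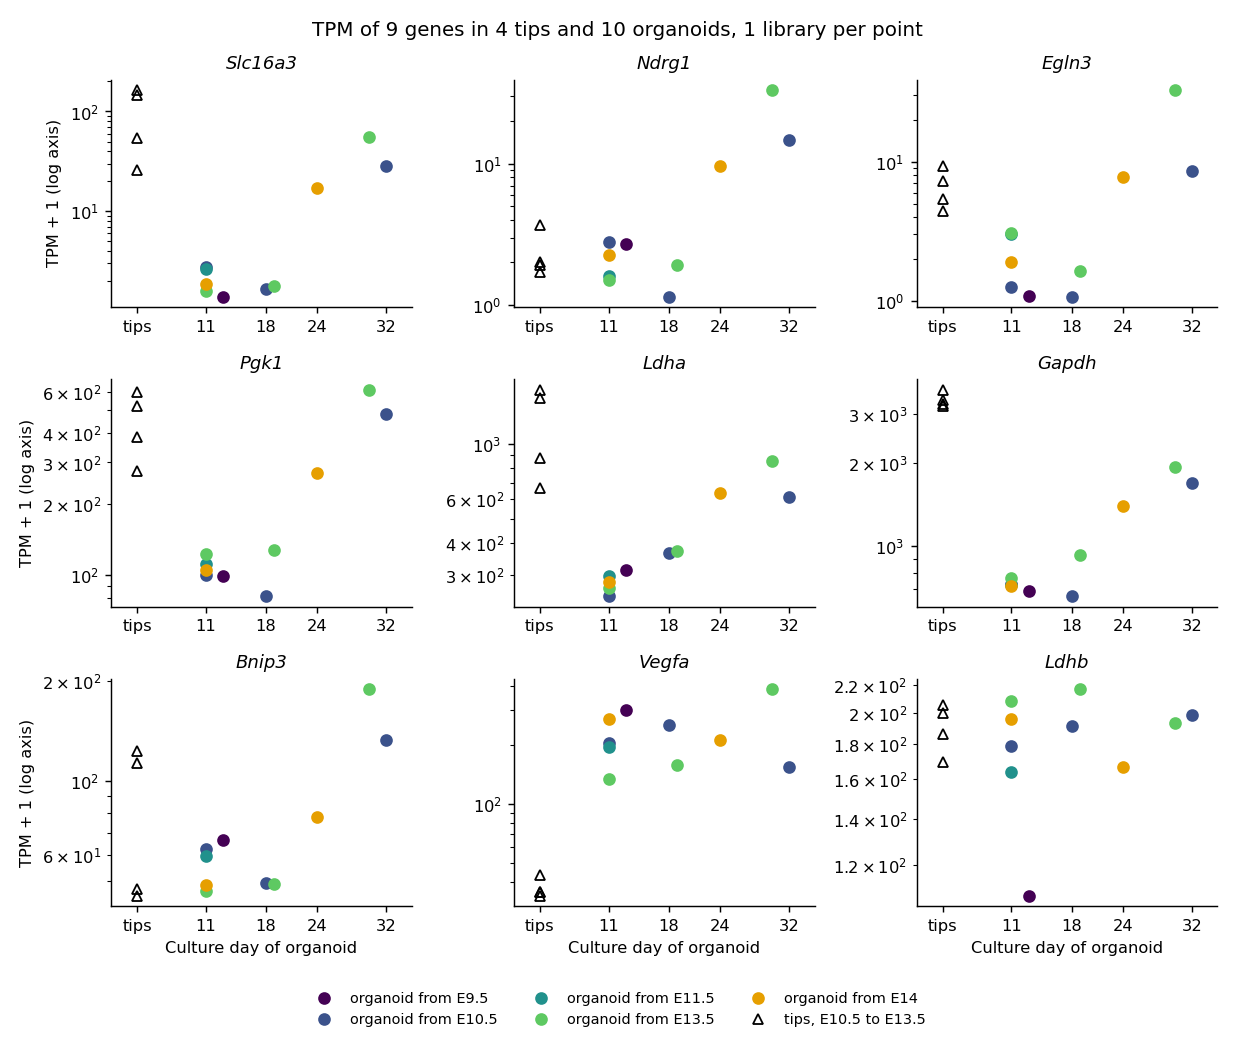
TPM + 1 (log axis) of 9 genes against days in culture; circles are the 10 organoids, coloured by starting stage, and triangles at the left are the 4 tips. Slc16a3, Ndrg1, Egln3, Pgk1 and Gapdh are higher at days 24, 30 and 32 than in any culture up to day 19, Ldha climbs with day in the E10.5, E13.5 and E14 series, and Vegfa and Ldhb show no order by day.

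Of 23 further hypoxia genes tested in the same fit, 6 rose and none fell, among them Ak4 (2.73), Plin2 (1.151) and Car12 (1.10). Of 15 further glycolysis genes, Eno1b (1.66) and Slc16a1 (0.50) rose and Adpgk fell (-0.84). None of 16 citric acid cycle genes and none of 12 genes of pyruvate dehydrogenase and its regulation passed in limma, with 1 of the 16 and 4 of the 12 at an unadjusted p under 0.05. Of 9 HIF subunits and regulators, Vhl rose (0.52) and Arnt2 fell (-1.96). Of 12 proliferation genes, Mcm2 fell (-0.98), and their summed level in the organoids of 30, 32 and 24 days, 574, 598 and 641 TPM, lay within the 318 to 761 TPM of the others; whether cell division or mesenchyme had a part in the change with culture day was not tested. Mesenchymal markers summed to 9.54, 190.5 and 22.5 TPM in these 3 and to 2.95 to 343 TPM in the others. Mitochondrially encoded transcripts made up 13.0%, 15.2% and 13.4% of TPM in the 3 and 11.3% to 14.0% in the others.

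The embryonic day at which organoids were started gave no call among the 38 genes (limma), where 0.0536% of all genes were called. At an unadjusted p under 0.05 stood Egln3 (1.45 over 4.5 days) and Car9 (0.96).

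Within the tips, levels went down with embryonic day for 33 of 38 estimates, and 1 gene passed. Ldha stood at 1522, 1645, 880.1 and 664 TPM from E10.5 to E13.5, a change over 3 days of -1.35 ± 0.27 (limma, adjusted p = 0.0472). Of all genes 0.733% were called, 0.530% lower, and the Ldha call was lost with a smaller pseudocount and when any 1 of 12 of the 14 libraries was left out. At an unadjusted p under 0.05 stood 14 of the 38, a count not set against the share of all genes at that level and not read as a result. The median change of the 38 was -0.64, against -0.03 over all genes. Slc2a3 gave the largest estimate (-5.48 ± 1.18, adjusted p = 0.0585), with the values 696, 719, 109 and 18.2 TPM, followed by Slc16a3 (-2.74, adjusted p = 0.404). Further values from E10.5 to E13.5 were 519, 596, 385 and 276 TPM for Pgk1, 38.9, 56.2, 28.1 and 14.5 TPM for Pdk1, and 112, 122, 44.1 and 46.5 TPM for Bnip3. In each, E10.5 and E11.5 lay above E12.5 and E13.5. Egln3 went the other way, at 4.40, 3.43, 6.26 and 8.24 TPM, and did not pass. Embryonic globins summed to 5286, 4208, 7685 and 1050 TPM in the same order and Hbb-bh1 fell (-4.77, adjusted p = 0.0481). With 1 library per stage, stage and library cannot be told apart.

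The third comparison set cultures without 1 component against the culture named ALL, with 14802 genes tested, 37 of the 38 among them (Car9 was too low), and 4 residual degrees of freedom. The label carries FGF10 as a name; it is known as the growth factor that drives lung bud outgrowth.

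Among the 37 genes, only the cultures without the component named VC had calls against ALL, 2 in number, which single libraries decide as given below. Slc2a3 stood at 0.99 and 3.21 TPM in ALL-VC, against 35.3 and 25.7 TPM in ALL, 25.0 and 41.9 TPM in ALL-FGF10 and 101 and 42.2 TPM in ALL-MTG, so both ALL-VC libraries lay below all 6 others. Against ALL the log2 difference was -3.43 ± 0.50 (limma, adjusted p = 0.0366). Slc2a3 was 7.78% and 11.6% of summed Slc2a1 and Slc2a3 in ALL-VC and 63.2% to 90.3% in the other 6. Pkm, pyruvate kinase, went up, from 278 and 205 TPM to 494 and 658 TPM (1.25 ± 0.19, adjusted p = 0.0406). These were the 2 genes called of 37, where 0.804% of all genes were called. Another 14 stood at an unadjusted p under 0.05, among them Pgam1 (1.34, adjusted p = 0.0933), Eno1 (1.33), Pgk1 (1.43) and Gapdh (0.75), and 30 of 37 estimates were positive with a median of 0.53, against 0.18 over all genes. The count of 14 was not set against the share of all genes at that level.

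The 2 ALL-VC libraries differed from each other in the hypoxia genes. Slc16a3 stood at 0.37 and 19.7 TPM in replicates 1 and 2, Ndrg1 at 0.46 and 28.6 TPM, Bnip3 at 44.4 and 157 TPM, Pgk1 at 138 and 363 TPM and Ankrd37 at 1.56 and 9.67 TPM. Replicate 1 lay among the other cultures for Slc16a3, Ndrg1 and Bnip3, and replicate 2 lay above all 7 other libraries for all 5 genes. Replicate 2 had no match in this respect among the replicated cultures, and its Vegfa, at 209 TPM, was within the 125 to 329 TPM of the others. The 2 calls against ALL were both lost without either ALL-VC library, without ALL replicate 2, or without either ALL-FGF10 library, and without ALL replicate 1 there were 7. The sum of 12 proliferation genes was 708 and 489.6 TPM in ALL-VC and 393 and 209.7 TPM in ALL, with 12 of 12 estimates positive and none called; its part in the difference was not tested.

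Leaving out FGF10 called none of the 37 genes against ALL, where limma called 1.83% of all genes. At an unadjusted p under 0.05 stood 5: Hk2 (41.1 and 35.2 TPM in ALL, 16.0 and 15.9 TPM without FGF10; -1.21 ± 0.35, adjusted p = 0.140), Vegfa (206 and 129.98 against 329 and 314 TPM; 0.97 ± 0.28, adjusted p = 0.143), Gapdh (800 and 849 against 533 and 518 TPM; -0.65), Gpi1 (-0.42) and Pfkfb4 (0.56). The groups did not overlap in any of the 5, as they did not in 31.3% (higher) and 21.9% (lower) of all genes. Outside the 38, the gluconeogenic Fbp2 was higher without FGF10 (2.68, adjusted p = 0.00635) and Bhlhe40 lower (-1.09, adjusted p = 0.0151). Leaving out MTG called none either, where 0.513% of all genes were called, with Pfkfb3 (2.17 and 3.07 against 17.3 and 6.62 TPM; adjusted p = 0.226) and Pgam1 at an unadjusted p under 0.05.

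Of the comparisons between omissions, only ALL-FGF10 against ALL-VC gave more calls than ALL-VC against ALL. Comparisons between omissions share libraries with those against ALL, so they are not further evidence for the same genes. ALL-FGF10 and ALL-VC lay furthest apart: 5 of 37 genes were lower without FGF10 than without VC and 2 were higher, where 1.88% and 1.94% of all genes were, 3.82% in all. The lower ones were Tpi1 (109 and 106 against 207 and 387 TPM; -1.38 ± 0.27, adjusted p = 0.0380), Gapdh (-1.40), Pkm (-1.10), Ddit4 (58.1 and 49.1 against 103 and 116 TPM; -1.02 ± 0.16, adjusted p = 0.0200) and Gpi1 (-0.78), and the higher ones Slc2a3 (3.53 ± 0.50, adjusted p = 0.0121) and Pfkfb4 (32.3 and 32.9 against 15.4 and 11.3 TPM; 1.24 ± 0.22, adjusted p = 0.0276). All 6 lower glycolysis enzymes lay lower without FGF10 than without VC with no overlap, where 36.5% of all genes did. The same did not hold against ALL. There Gapdh and Eno2 lay lower without FGF10, Pgk1, Eno1 and Pkm overlapped, and Pgam1 lay higher. Eno1 is uncertain here too, as Eno1b held 27.14% to 56.45% of their summed TPM in the replicated cultures, most in ALL-VC replicate 1. Eno1b itself was called lower without FGF10 than without VC (-2.955) and than without MTG (-1.707). With median-ratio rescaling the calls over all genes moved from 287 higher and 278 lower to 323 and 204, and Gapdh and Gpi1 were no longer called. Genes of 100 to 150 nucleotides were listed above 0 in ALL-FGF10 (54 and 119) and in neither ALL-VC library. Within a group this listing differed only in ALL-MTG, at 21 in replicate 1 and 0 in replicate 2. A term for it rests on that pair, so a lost call cannot tell listing from FGF10 omission. With a term for that listing none of the 7 was called, nor was any without either ALL-FGF10 library. Without ALL-VC replicate 2 only Slc2a3 was called, and without replicate 1 there were 6 calls, all lower and 2 of them among the 7, without Slc2a3. The proliferation genes summed to 295 and 308.6 TPM in ALL-FGF10, below both ALL-VC libraries, and 11 of 12 lay lower without overlap; their part was not tested.

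ALL-FGF10 against ALL-MTG called none of the 37 (3.52% of all genes; 7 at an unadjusted p under 0.05, led by Pfkfb4 at 1.01, adjusted p = 0.0546). ALL-MTG against ALL-VC called Slc2a3 alone, where 0.547% of all genes were called, and not without either ALL-VC library or without ALL-MTG replicate 1. The other reference genes were not called against ALL in any omission. Slc2a1 ranged from 8.65 to 24.5 TPM over the 8 libraries, Ldha from 306 to 644 TPM, Pdk1 from 8.24 to 31.3 TPM and Egln3 from 0.06 to 4.38 TPM, each highest in ALL-VC replicate 2.

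**Figure D4:**
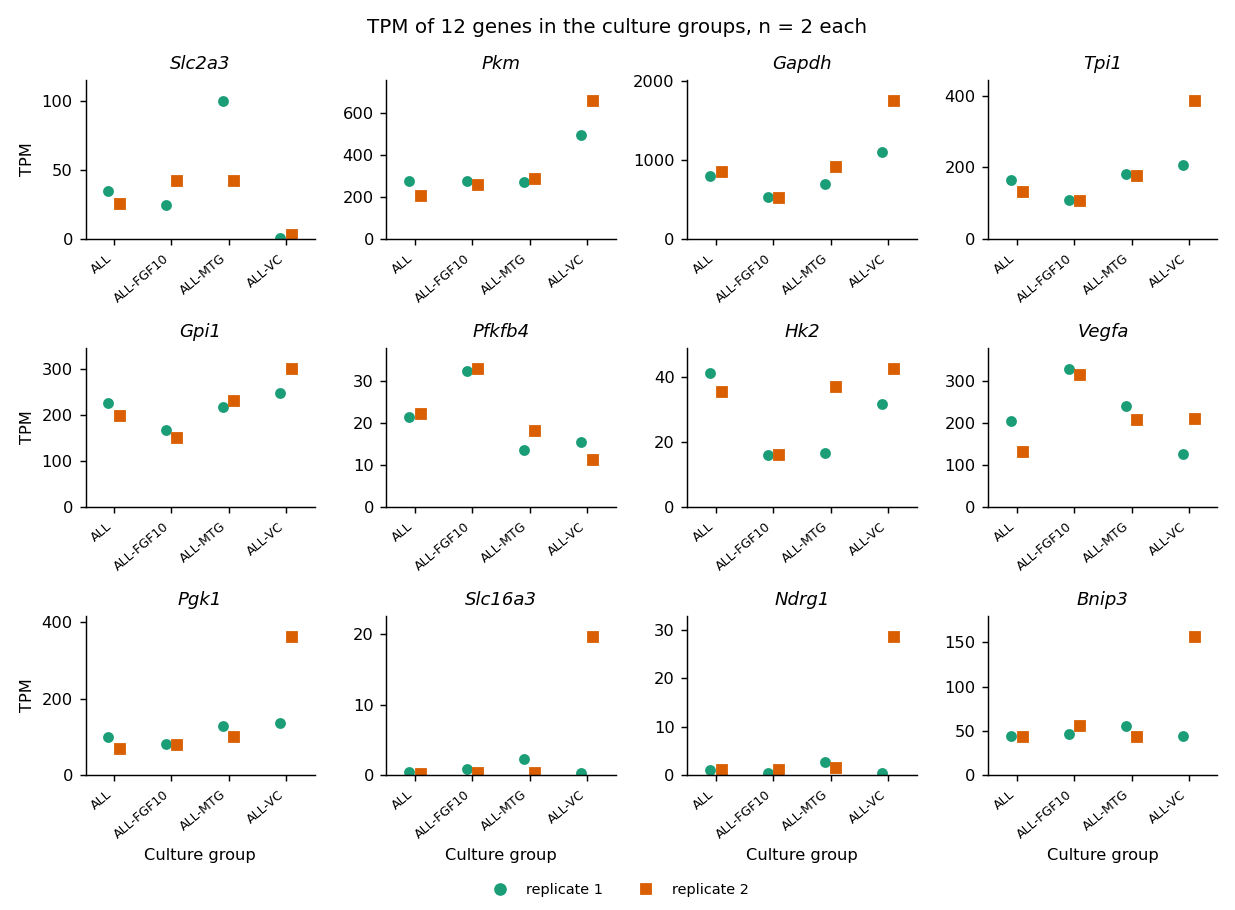
TPM (linear axes) of 12 genes in the 4 replicated cultures; circles are replicate 1 and squares replicate 2. Slc2a3 is lowest in both ALL-VC libraries, and Slc16a3, Ndrg1 and Bnip3 are high in ALL-VC replicate 2 and not in replicate 1. Pgk1 is highest in ALL-VC replicate 2 (363 TPM), with replicate 1 next (138 TPM).

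The fourth comparison set pieces of organoids named by position against each other, in 8 pieces and 1 intact organoid. The named positions overlap (down-half covers down-half-left and down-half-right), and the labels do not say which organoid each piece came from. Position and organoid therefore cannot be told apart. Of 36 genes tested, none passed in limma in any of 4 contrasts (up against down, left against right, pieces named by 2 directions against those named by 1, and pieces against intact), and 0% of 15017 genes did. At an unadjusted p under 0.05 stood Vegfa, lower in the 3 up than the 3 down pieces (227, 210.0 and 191 against 319, 239.8 and 385 TPM; -0.56, adjusted p = 1), Ddit4, higher on the left (0.49), Hk2, higher in pieces named by 2 directions (69.1, 111, 65.8 and 77.9 against 51.2 to 56.9 TPM; 0.56), Eno2, and Ldha, lower in the pieces than in the intact organoid (0.40 lower on the log2 scale in pieces of 286 to 348 TPM, against 426 TPM). Slc2a1 lay between 15.1 and 26.2 TPM, Gapdh between 631 and 1017 TPM, Pgk1 between 79.8 and 117 TPM, and Bnip3 between 43.3 and 70.9 TPM. Pdk1 ranged more widely, from 4.97 to 20.2 TPM, and Slc2a3 more widely still, at 110.3 TPM in up-half, 24.5 TPM in the intact organoid, 16.8 and 18.2 TPM in down-half-left and left-half and 0.40 to 4.59 TPM in the other 5. Slc16a3 was at most 1.08 TPM, Egln3 at most 1.38 TPM and Ankrd37 at most 5.40 TPM. At an unadjusted p under 0.05 stood 463 to 799 of all genes per contrast, and no other tool was run.

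The fifth comparison added components to the culture named 2C. With 1 library each there is no test, and a difference is described where it reached 1 on the log2(TPM + 1) scale with at least 5 TPM in the higher library. Slc2a3 differed most: 0.74 TPM in 2C, 0.11 TPM in 2C+F10 and 2.99 TPM in 2C+VC, but 27.8 TPM in 2C+MTG and 63.5 TPM in the unnumbered ALL. F10 added to 2C moved none of 31 genes that far, where 5.90% of all genes moved. MTG moved 3 of 30 (7.52% of all genes): Slc2a3, Aldoc (3.17 to 9.84 TPM) and Ankrd37, which was lower (8.38 to 2.98 TPM). VC moved 4 of 30 (9.61%), with Pfkp (2.39 to 8.77 TPM), Aldoc (8.78 TPM) and Pfkfb4 (7.06 to 18.3 TPM) higher and Ankrd37 (2.99 TPM) lower. The unnumbered ALL differed from 2C in 6 of 31 (12.3%): Slc2a3, Pfkp (13.6 TPM), Aldoc (9.75 TPM) and Ldhb (95.8 to 208 TPM) were higher and Kdm3a (92.5 to 41.1 TPM) and Ankrd37 (2.93 TPM) lower. Ankrd37 was thus past the fold in 2C+MTG, 2C+VC and the unnumbered ALL but not in 2C+F10 (12.3 TPM). Over the 5 libraries Gapdh lay between 576 and 759 TPM, Ldha between 251 and 345 TPM, Pgk1 between 88.6 and 111 TPM, Hk2 between 4.26 and 11.8 TPM, Slc2a1 between 8.83 and 13.9 TPM, Bnip3 between 53.2 and 81.5 TPM and Pdk1 between 16.9 and 26.0 TPM, while Egln3 was below 0.5 TPM. Vegfa stood at 249 to 370 TPM in 4 of them and at 584 TPM in 2C+VC, just short of the fold against 2C. Proliferation genes summed to 363 TPM in 2C, 211 TPM in 2C+F10, 517 TPM in 2C+MTG, 220.4 TPM in 2C+VC and 445.5 TPM in the unnumbered ALL.

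The sixth comparison followed the LO cultures, again with 1 library each and no test. From day 8 to day 11 only Slc2a3 passed the fold rule (4.09 to 23.3 TPM), where 5.25% of all genes did. By day 18 Slc2a3 had reached 116 TPM, and 6 of 31 genes were higher than on day 8 and 1 lower. Over all genes 19.9% differed, a share near that of the 31, so the count is not a result about them. Besides Slc2a3 the genes past the fold were P4ha1 (5.99 to 31.5 TPM), Pfkfb4 (4.36 to 28.2 TPM), Ldha (159 to 374 TPM), Vegfa (126 to 285 TPM), Hk1 (22.7 TPM on day 18) and, lower, Pdk1 (38.2 to 14.0 TPM). Against day 11, day 18 differed in 5 of 31 (14.1% of all genes): Slc2a3, Pfkfb4, P4ha1 and Ldha were higher and Pdk1 was lower. Several genes that rose with culture day in the time series of organoids were not higher on day 18 than on day 8 by that fold: Slc16a3 stood at 2.86, 0.98 and 0.55 TPM on days 8, 11 and 18, Ndrg1 at 1.84, 1.04 and 0.07 TPM, Pgk1 at 114, 133 and 88.5 TPM, Gapdh at 978, 896 and 710.5 TPM, and Bnip3 at 42.1, 64.5 and 55.3 TPM. The LO cultures end at day 18, and in the time series these genes stood high only from day 24. Proliferation genes summed to 890 TPM on day 8, 712 TPM on day 11 and 365 TPM on day 18, and mesenchymal markers to 16.6, 72.1 and 3.76 TPM; their part was not tested.

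DCI on day 11 went with the largest number of differences among these libraries, both for these genes and over all genes. Against day 11 without it, 8 of 33 genes were higher and 2 lower, where 24.2% of all genes differed, 11.2% higher and 13.0% lower. The total is not far from that share, and with no test the count is not read as a result about these genes. Ndrg1 stood at 29.8 against 1.04 TPM, Vegfa at 724 against 193 TPM (the highest of all 40 libraries), P4ha1 at 45.1 against 9.38 TPM, P4ha2 at 65.2 against 17.4 TPM, Ankrd37 at 8.12 against 1.21 TPM, Pfkfb4 at 21.3 against 4.86 TPM, Higd1a at 77.0 against 28.2 TPM and Hk1 at 37.8 against 13.52 TPM. Slc2a3 (5.71 against 23.3 TPM) and Pfkfb3 (5.17 against 12.3 TPM) were lower. Slc16a3 was low in both (1.07 and 0.98 TPM), and Pgk1 (118 and 133 TPM), Gapdh (969 and 896 TPM), Ldha (261 and 180 TPM), Bnip3 (111 and 64.5 TPM), Slc2a1 (28.4 and 13.9 TPM), Hk2 (23.2 and 17.1 TPM) and Pdk1 (22.4 and 35.3 TPM) did not reach the fold. Thus Ndrg1, Ankrd37 and P4ha1 were high here without Slc16a3 or Pgk1, whereas in the 30- and 32-day organoids all 5 were high. The summed proliferation genes stood at 158 TPM with DCI and 712 TPM without it, with 12 of 12 past the fold, and the mesothelial markers at 277 and 6.24 TPM, led by Msln; their part in these differences was not tested.

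**Figure D5:**
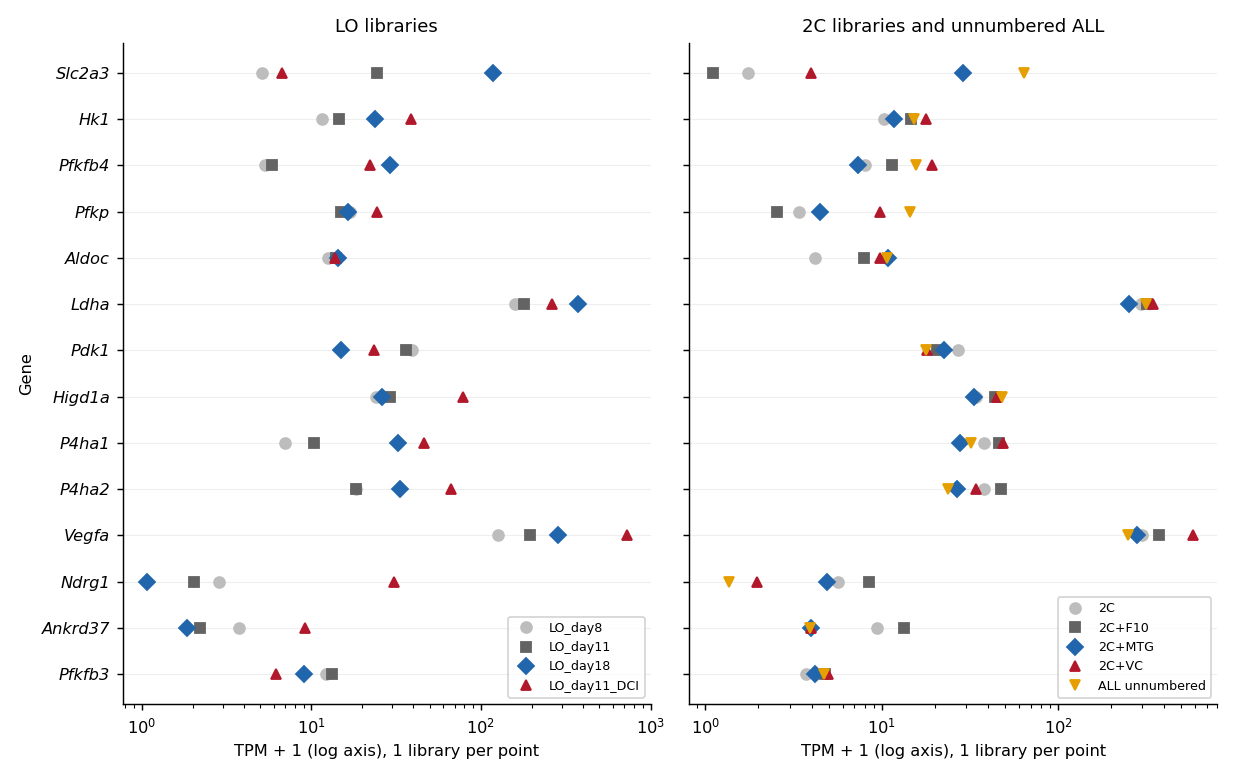
TPM + 1 (log axis) of 14 genes in the 4 LO libraries and in the 2C cultures with the unnumbered ALL, 1 library per point. Slc2a3 climbs from LO_day8 (4.09 TPM) to LO_day18 (116 TPM) and is high in 2C+MTG and ALL, and Vegfa and Ndrg1 are highest in LO_day11_DCI.

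Slc2a3 ranged across the study from 0.11 TPM in 2C+F10 to 719 TPM in the E11.5 tip. It stood at 25.0 to 101 TPM in the numbered ALL, ALL-FGF10 and ALL-MTG libraries, at 27.8 TPM in 2C+MTG and 63.5 TPM in the unnumbered ALL, and at 0.11 to 3.21 TPM in both ALL-VC libraries, 2C, 2C+F10 and 2C+VC. These libraries come from 2 tables, and the comparison across them was not tested. Slc2a3 also spread widely in the other cultures. It ranged from 0.40 to 110.3 TPM over the pieces and the intact organoid. In the LO libraries it ranged from 4.09 to 116 TPM, and in the organoid time series from 9.12 to 104 TPM.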

How the data were processed

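Poly(A) RNA of tip epithelium and organoids was sequenced in 40 libraries. TPM values per gene symbol were deposited by the authors in 5 tables. The submitters' processing notes name RSEM, Bowtie2 and mm10, and versions are not given in the sources used here. Per the labels' protocols, RNA was taken up in TRIzol and libraries were made with a VAHTS mRNA-seq kit. TPM keeps no read depth, so no counting error can be given. In the tables, 1 column that matches no sample was not used.

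Values were tested as log2(TPM + 1) with limma 3.58.1 in R 4.3.3 (empirical Bayes with a trend), for genes at 1 TPM or more in at least 2 libraries, with Benjamini-Hochberg adjustment over all genes tested and a threshold of 0.05. A change on this scale understates that of low genes. Counts at an unadjusted p under 0.05 are descriptions only. Except for the pieces, the number of all genes at that level is not set beside them. The 4 replicated cultures shared 1 fit (4 residual degrees of freedom). Organoids were compared with tips in a fit with no further terms, so without adjustment for stage or culture day. A separate fit of the same libraries (9 residual degrees of freedom) held slopes on culture day, starting stage and embryonic day. These slopes are given over 21, 4.5 and 3 days. Pieces had their own fit (4 residual degrees of freedom). Single libraries were compared with a fold rule (log2 difference of at least 1, with 5 TPM in the higher) and no test. The fits were tested on simulated data. Alternatives were a pseudocount of 0.5, no filter, median-ratio and quantile scaling, each library left out, only the groups compared, a replicate block and a term for the listing of short genes.

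The 38 genes and the related lists were chosen with earlier results of these data known. Named are all called genes of the 38 up to 14 per comparison, by size, with 5 TPM or more in the higher group, and Slc2a1, Slc2a3, Hk2, Gapdh, Pgk1, Ldha, Pdk1, Bnip3, Egln3, Ankrd37 and Vegfa throughout; other members are named to account for all. Gene positions are from GENCODE M21, and promoter windows on chromosome 18 were not used. Reads shared with near copies could not be separated: Eno1b held 18.1% to 59.2% of the summed TPM of Eno1 and Eno1b, and other copies at most 2.15%, except those of Pgam1 in down-half-left (21.8%).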

Additional observations from a re-analysis of the deposited data

Results flagged for a closer look

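In 10 of 105 groups of 4 to 10 libraries examined for the 38 genes, the highest or lowest library lay further from its nearest neighbour on the log2(TPM + 1) scale, relative to the range, than Dixon's 95% critical value allows. That value gives about 1 in 20 only for independent draws from 1 normal distribution. Libraries here differ by stage, culture day or position, so the count is not compared with chance. In the tips, E13.5 was low for P4ha2 (8.81 TPM) and for Ankrd37 (6.09 TPM). Among the organoids, E9.5 after 13 days was low for Ldhb (107 TPM), and E13.5 after 30 days was high for Egln1 (36.2 TPM) and P4ha2 (62.86 TPM). Among the 8 pieces, down-half-left was high for Pfkfb4 (52.51 TPM) and Car9 (5.64 TPM), up-half was low for Pkm (244.6 TPM) and Higd1a (10.33 TPM), and up-half-right was low for Ldhb (101 TPM).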

How the results depend on the processing

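Over the alternatives run, none of the called genes reversed. Of 437 gene and setting pairs for organoids against tips 24 lost the call, and of 440 for culture day 39 did. The number of the 38 genes called moved as follows; the cause was not tested. Without the filter it was 0 for ALL-VC against ALL, 3 for ALL-FGF10 against ALL-VC and 0 for ALL-MTG against ALL-VC. With only the 2 groups compared it was 1 for ALL-FGF10 against ALL-MTG and 0 both for ALL-VC against ALL and for ALL-MTG against ALL-VC. With a term for the listing of short genes it was 1 for ALL-VC against ALL, 0 for ALL-FGF10 against ALL-VC and 0 for ALL-MTG against ALL-VC. For embryonic day in tips it was 0 with a pseudocount of 0.5 and 2 with median-ratio scaling. For culture day it was 2 without the organoids of 30 and 32 days, chosen after seeing the data. In single libraries, 2C+F10 had 1 at a pseudocount of 0.5, and 2C+MTG and 2C+VC had 1 each with 10 TPM required.

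With 1 library left out in turn, the calls ranged from 0 to 1 for ALL-FGF10 against ALL, 0 to 7 for ALL-VC against ALL, 0 to 8 for ALL-FGF10 against ALL-VC, and for ALL-MTG against ALL-VC 0 to 1, 20 to 26 for organoids against tips, 14 to 23 for culture day and 0 to 1 for embryonic day in tips; the others stayed at 0. ALL-FGF10 against ALL had 1 call without ALL replicate 1 or either ALL-MTG library, none of them a gene called with all libraries. Where this left 1 library in a group, that library was assumed to vary like the others.

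With the replicate number as a block, ALL-VC against ALL had 0 calls and ALL-FGF10 against ALL-VC had 5. Same-numbered libraries share only a number: differences between replicates 1 and 2 correlated at -0.07 to 0.11 between groups. Over all genes, quantile scaling gave 4622 higher and 5518 lower for organoids against tips and 651 and 712 for culture day. Sequencing depth, which limits low genes, is unknown.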
